A study of Mus musculus with 36 samples.

Results

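The comparison covered liver RNA of mice under chronic intermittent hypoxia (IH) and of control mice, both collected at ZT8 (8 h after lights on), when the daily hypoxic window closed. Its members were the 6 libraries that the deposited tables give for ZT8, 3 for IH and 3 for control, of 36 libraries over 6 time points in the whole series. All mice were wild-type C57BL/6JRj males, 16 weeks old, under 12 h of light per day. For 4 weeks, IH mice received 60 cycles per h between 5% and 21% FiO2 (the inspired oxygen fraction) from ZT0 to ZT8, and control mice received cycles of air alone. Each library came from a different mouse, so replicates are animals. The study's methods describe mice kept in groups in a cage with food at all times, but which of the sequenced mice shared a cage, and how long after the last cycle a liver was taken, is not given in the sources used here. The question of the comparison is which liver transcripts differed at the end of the hypoxic window, in mice of the same clock time.

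At ZT8 the mouse liver is late in the rest phase: little food has been eaten for hours, glycogen is being spent, and amino acids are used to make glucose. The liver clock runs through CLOCK and BMAL1 (Arntl), which switch on Per, Cry and Nr1d genes as well as the output factor DBP, and the PER and CRY proteins then repress CLOCK and BMAL1. Low oxygen stabilizes hypoxia-inducible factors (HIF), which are known to raise glycolytic genes, and type I and type II interferon keep a set of interferon-stimulated genes active.

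Expression was measured as FPKM, the number of fragments scaled to transcript length and library size, and all differences are of log2(FPKM + 1), IH minus control. Of 24066 symbols listed on 1 row, 13215 averaged 0.1 FPKM or more across all 36 libraries and were tested with limma. The 6 libraries had 15663 to 16001 symbols above 0, and their FPKM summed to 572970 to 616662. The FPKM steps of weakly expressed genes put their depth at 81.7% (control replicate 3) to 100% of that of IH replicate 1. The number of fragments itself is not known, so no counting error is given. Markers of hepatocytes were abundant, with summed FPKM from 54299 to 70379 for 10 genes, while those of lymphocytes summed to 1.44 to 2.75 for 13 genes.

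1 control library stood apart from the other 5. Along the axis of largest variance among the 6 libraries (37.4% of the variance), control replicate 1 lay at 27.0 and the others between -7.95 and -2.78. Saa1, an acute phase gene of inflammation, was at 828 FPKM there and at 19.1 to 53.1 FPKM in the other 5 libraries. Cyp4a14, a fatty acid hydroxylase and target of PPARα, was at 3.8 FPKM there and at 53.6 to 195 FPKM elsewhere. Alb, which encodes albumin and was, like Saa1 and Cyp4a14, chosen after its values were seen, was at 23400 FPKM in this library and between 32643 and 34678 FPKM elsewhere, and Hamp, which encodes the iron hormone hepcidin, at 1292 FPKM against 3168 to 5948 FPKM. In this library 120 genes lay at least 1 log2 unit from the mean of the other 5, against 35 to 49 genes in each other library. Counts by gene list are therefore also given without control replicate 1 where they changed, with 3 libraries against 2, and so are the differences of some single genes. Fits with sample weights, and over 35 libraries without it, are given further below. Its part in the differences was not tested otherwise.

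**Figure D1:**
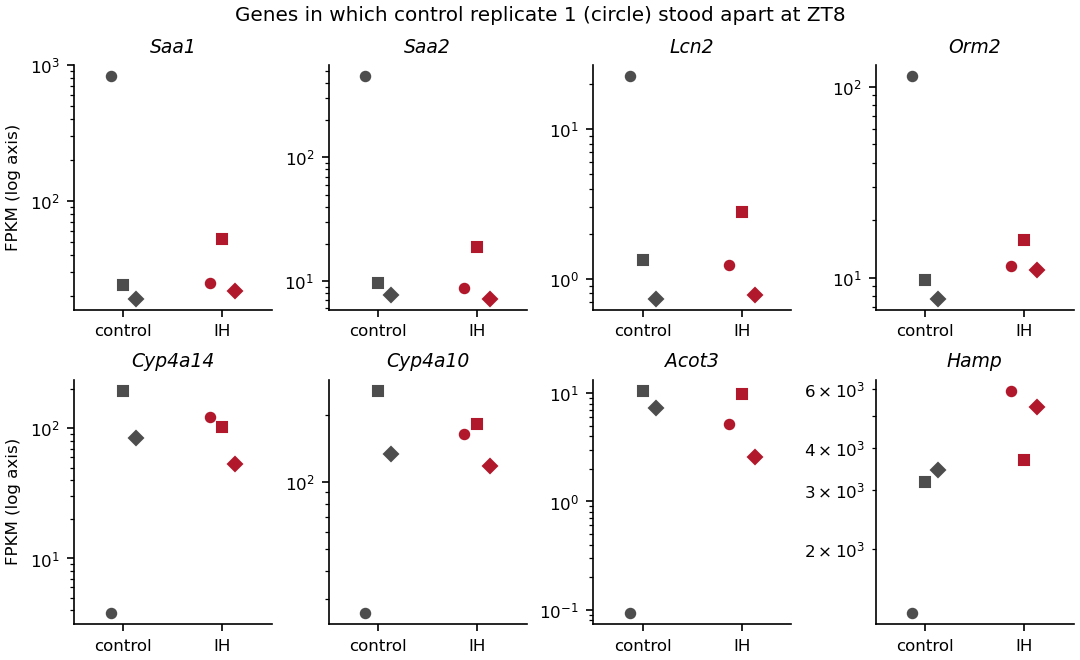
FPKM (log axes) of 8 genes in the 3 control (grey) and 3 IH (red) libraries at ZT8, 1 point per library, chosen after their values were seen. In control replicate 1 (grey circle), Saa1, Saa2, Lcn2 and Orm2 lay above and Cyp4a14, Cyp4a10, Acot3 and Hamp below all other libraries.

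At a nominal p of 0.01, 216 of the 13215 genes (1.63%) were higher and 121 (0.916%) were lower in IH at ZT8, 337 in all (2.55%), where 132 genes pass by chance alone if no gene differs. At an adjusted p under 0.05 there were 0 genes in limma, and 1475 (11.2%) had an unadjusted p under 0.05. The smallest adjusted p was 0.313, so single genes are described here at the nominal threshold, and "higher", "lower" and "called" refer to it. The called differences were small, with a median size of 0.32 on the log2 scale, and 1 gene passed a size of 1 log2 unit. In all 337 genes the 3 IH libraries and the 3 control libraries did not overlap, which held for 11% (higher) and 7.16% (lower) of all genes tested. Leaving out each library in turn, 45 of the 216 and 34 of the 121 genes passed in all 6 fits. Without control replicate 1, 215 genes (1.63%) were higher and 274 (2.07%) lower (3.7% in all), and 133 of the 216 and 86 of the 121 passed again. Leaving out a library could not change the direction of the 337 genes, since their groups did not overlap. Among the 3 controls, replicate 1 lay farthest from IH in 112 of the 216 genes, and replicates 2 and 3 in 47 and 57. Of the 121 lower genes, replicates 1, 2 and 3 lay farthest in 47, 46 and 28. When FPKM were rescaled to a common sum, 147 genes were higher and 180 lower, so the share of higher among called genes (64.1% as deposited, 45% rescaled) depended on the scaling, although the median difference of all genes was 0.01 as deposited.

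**Figure D2:**
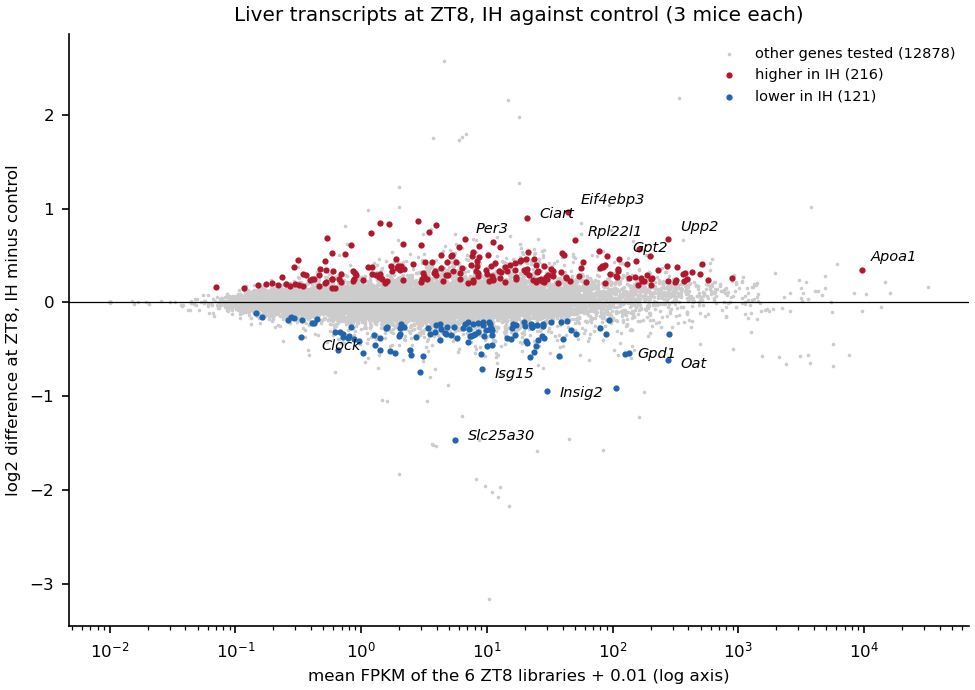
Each point is 1 of 13215 genes, with its mean FPKM over the 6 ZT8 libraries plus 0.01 (horizontal log axis) and its log2 difference, IH minus control (vertical axis). Red and blue points are the 216 higher and 121 lower genes at a nominal p of 0.01, most of them within 1 log2 unit of 0, and grey points far from 0 are genes with a wide spread between replicates.

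A subset of the interferon-stimulated genes was lower in IH at ZT8. Of 52 tested members of the list, 0 were higher and 7 were lower (13.5%, against 0.916% of all genes), 43 had a difference below 0, and the median difference was -0.17 (all genes 0.01). Isg15, a ubiquitin-like protein that is conjugated to others after interferon, was at 6.86, 6.83 and 6.21 FPKM in IH and at 12.9, 11.8 and 10.0 FPKM in control. All 3 IH libraries thus lay below all 3 control libraries, with a log2 difference of -0.71 (SE 0.10, limma adjusted p = 0.313), and its p was the smallest of the lower genes. Irgm1, an interferon-induced GTPase, was at 13.1, 14.7 and 12.4 FPKM in IH and within 17.7 to 18.0 FPKM in control (-0.39, SE 0.07). Lgals3bp, a secreted glycoprotein, was at 23.8, 23.8 and 26.4 FPKM in IH and at 33.9, 31.2 and 32.2 FPKM in control (-0.38, SE 0.07). Usp18, the protease that removes ISG15 from proteins, fell by 0.40. Iigp1, another GTPase, fell by 0.34 and Cmpk2, a mitochondrial nucleotide kinase, fell by 0.42. The highest values in the list belonged to Irf1 (0.32) and Gbp2 (0.24), which did not pass the test, and Gbp2 was chosen after its values were seen.

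Isg15, Irgm1 and Lgals3bp passed in each of the 6 fits that left out 1 library, whereas Usp18 and Iigp1 passed in 1 and Cmpk2 in 2 of them, with a nominal p of at most 0.0277. Without control replicate 1, 6 members were lower and 0 higher, and the median was -0.15. Macrophages of the liver (Kupffer cells) also express many of these genes, and 12 of their 14 markers had a difference below 0. The markers had a median of -0.27 with 0 called, and their summed FPKM ranged from 102 to 144 in IH and from 113 to 163 in control. By library, the sum was 144 in both IH replicate 3 and control replicate 1, whereas Isg15 did not overlap between the groups. Clec4f, a receptor found on Kupffer cells, was at 8.25, 7.91 and 13.0 FPKM in IH and 15.6, 9.20 and 15.1 FPKM in control, groups that overlap. The part of Kupffer cells in the interferon-stimulated genes was not tested, and in bulk tissue fewer cells of a type and less RNA per cell cannot be told apart.

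Of the 7 lower members, 4 had an entry among the RefSeq promoters, and 2 of these held an interferon-stimulated response element (ISRE, searched on both strands as GAAA, any 2 bases and GAAA) in the 250 bases before the gene start. Of all 27025 genes with a promoter, tested here or not, 3.46% held this motif. Members of the list that were not lower were not compared, so these counts do not set the lower members apart within it. The stretches that hold it are printed from the GRCm38.p6 assembly, 5′ to 3′ on the strand of the gene (minus for both genes), with the matches in capitals. That of Isg15 is chr4:156200845-156200926, with 3 overlapping matches that end 56 bases before the start, and that of Irgm1 is chr11:48871421-48871480, with 2 overlapping matches that end 14 bases before it.
Isg15: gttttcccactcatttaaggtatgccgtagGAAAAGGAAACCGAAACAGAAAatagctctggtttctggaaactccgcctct
Irgm1: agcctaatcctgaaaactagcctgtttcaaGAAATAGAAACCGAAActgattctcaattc

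**Figure D3:**
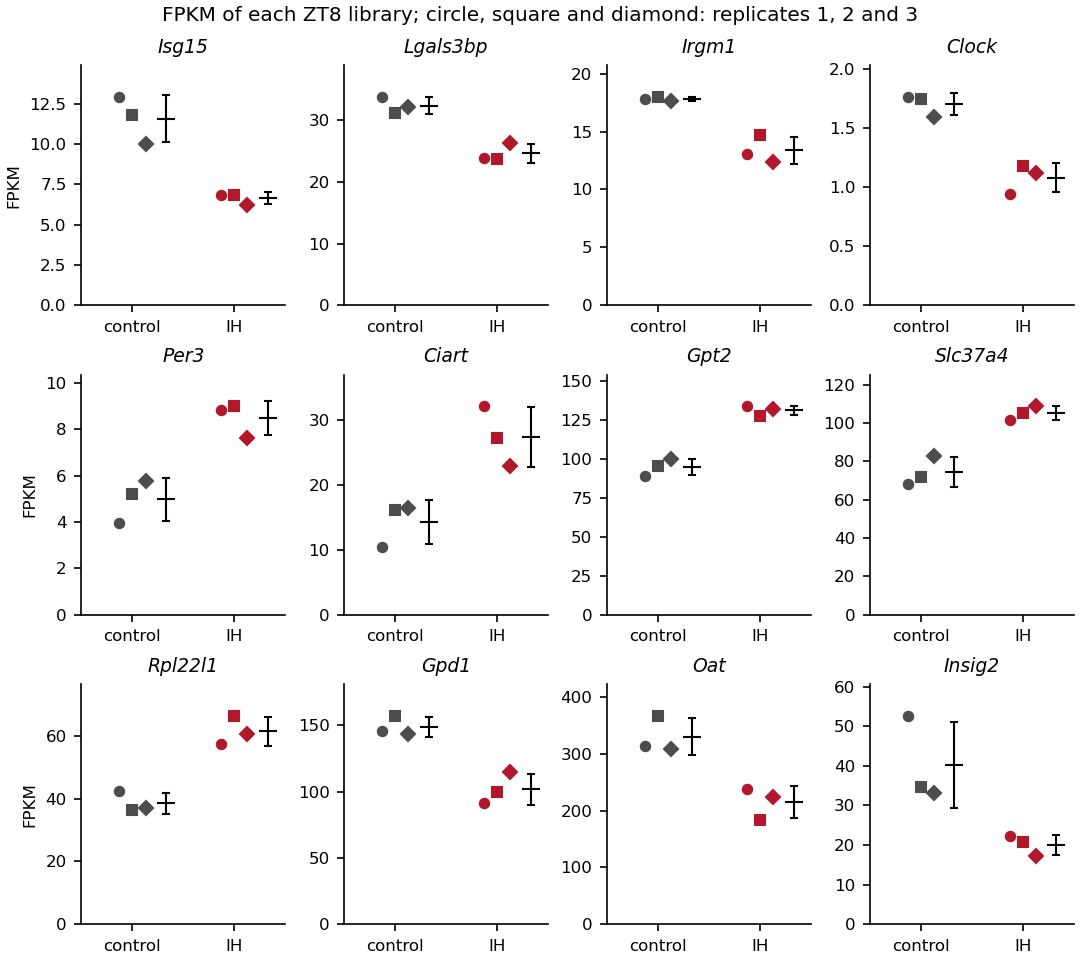
FPKM (linear axes from 0) of 12 genes in each ZT8 library, with circles, squares and diamonds for replicates 1, 2 and 3, and the mean ± SD (n = 3) as black bars. In each of the 12 genes the 3 IH libraries (red) and the 3 control libraries (grey) did not overlap.

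Among the core clock genes, Per3 was higher and Clock was lower in IH, 2 of 12 members tested (16.7%, against 2.55% of all genes). Leaving out control replicate 1, 2 members were higher and 1 lower. Per3, a member of the PER repressor family, was at 8.82, 9.01 and 7.64 FPKM in IH and at 3.96, 5.21 and 5.77 FPKM in control (log2 difference 0.68, SE 0.13, limma adjusted p = 0.313). Clock, the partner of BMAL1, was at 0.945, 1.18 and 1.12 FPKM in IH and at 1.77, 1.75 and 1.60 FPKM in control (-0.38, SE 0.07, limma adjusted p = 0.313). Both passed in all 6 fits that left out 1 library, and without control replicate 1 the differences were 0.55 and -0.36.

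The other 10 members did not pass. Per2 was at 5.79, 7.03 and 8.36 FPKM in IH and 3.92, 5.48 and 5.62 FPKM in control (0.42, SE 0.16). The repressor Cry2 (0.39, SE 0.12) lay in the same direction. Per1 was at 14.4 to 16.6 FPKM in IH and 7.65 to 14.1 FPKM in control, where the lowest value came from replicate 1, and its difference was 0.39 with it and 0.14 without it. Cry1 (0.17), Rora (0.15), Nr1d2 (0.11), Nr1d1 (-0.03) and Arntl (-0.07) had overlapping groups, and Npas2 was under 0.1 FPKM in all 6 libraries.

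Of the 13 genes in the clock output list, Ciart and Dbp were higher and 0 were lower, 12 had a difference above 0, and the median was 0.39. This was 15.4% called, against 2.55% of all genes. Of these 13, 3 were higher and 1 lower without control replicate 1, and the median was 0.22. Ciart, a repressor of CLOCK and BMAL1, was at 32.2, 27.3 and 22.9 FPKM in IH and at 10.4, 16.2 and 16.4 FPKM in control (0.90, SE 0.19, limma adjusted p = 0.336). Dbp was at 98.7, 95.4 and 84.4 FPKM in IH and at 62.9, 78.4 and 71.2 FPKM in control (0.39, SE 0.10), and passed in 2 of the 6 fits that left out 1 library. Usp2, a clock-driven protease, had a difference of 0.67 that missed the threshold (limma adjusted p = 0.379).

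All 4 called genes of both lists had a RefSeq promoter. In the 250 bases before the start, Per3 held 2 D-boxes (searched as TTATGNAA on both strands), the element that DBP and its relatives bind, and Ciart held 3 E-boxes (CACGTG, which reads the same on both strands), the element that CLOCK and BMAL1 bind. Of the 4 genes, only Per3 held a D-box and only Ciart an E-box, so Clock and Dbp held neither. A D-box was present in 3.63% and an E-box in 6.86% of the 27025 promoters. Uncalled members of both lists were not compared. The stretch of Per3 is chr4:151044786-151044900 and that of Ciart chr3:95882237-95882374 (GRCm38.p6, gene strand, minus for both, matches in capitals).
Per3: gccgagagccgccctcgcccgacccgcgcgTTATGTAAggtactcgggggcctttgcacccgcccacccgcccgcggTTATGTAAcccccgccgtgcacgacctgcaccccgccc
Ciart: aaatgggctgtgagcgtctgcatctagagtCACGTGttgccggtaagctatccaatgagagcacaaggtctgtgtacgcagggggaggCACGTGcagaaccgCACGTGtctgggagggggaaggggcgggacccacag

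A subset of the genes of the cytosolic ribosome was higher in IH. Of 82 ribosomal protein genes tested, 15 were higher (18.3%, against 1.63% of all genes) and 0 lower, 80 had a difference above 0, and the median was 0.16. Rpl22l1, a paralog of the ribosomal protein gene Rpl22, was at 57.5, 66.6 and 60.7 FPKM in IH and at 42.4, 36.5 and 36.9 FPKM in control (0.66, SE 0.08, limma adjusted p = 0.313), and it passed in all 6 fits that left out 1 library. The other 14 differed by 0.19 to 0.34, among them Rps21 (245, 263 and 267 FPKM in IH, 191, 207 and 213 FPKM in control), Rpl27a (0.26) and Rpl39 (0.29), which are parts of the small and the large subunit. Without control replicate 1, 20 were higher and 0 lower. Many of these genes have near-identical pseudogenes that share reads with them, so their levels are uncertain.

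Transcript length moved with this group. Ribosomal protein transcripts are short, and the deviations of the libraries from the mean of all 6 correlated with transcript length across 13116 genes (Spearman's rho across genes, which are not independent replicates) by -0.14, -0.10 and -0.02 in IH and by 0.04, 0.04 and 0.20 in control. With the genes cut into 5 bins of length, the median difference was 0.05 in the bin of shortest and -0.01 in that of longest transcripts. With each library's trend over length and GC content removed, 13 ribosomal protein genes were higher and 0 lower, 75 were above 0, and the median was 0.11. In that fit 200 genes (1.52%) were higher and 190 (1.45%) lower, 2.97% in all. The 84 genes of the respiratory chain had 75 differences above 0, a median of 0.11 and 0 calls, with Ndufa2, a subunit of complex I, at 0.22 (SE 0.07, limma adjusted p = 0.379). Their median was 0.05 with the trend removed, with 2 higher and 0 lower. For the 77 mitochondrial ribosomal proteins the median was 0.02, with 0 calls. The respiratory chain had 1 lower and the mitochondrial ribosome 1 higher gene without control replicate 1.

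Enzymes of the urea cycle and of amino acid breakdown were mostly higher among those called, 7 higher and 1 lower of 45 tested (17.8%, against 2.55% of all genes), but the median difference of the list was 0.06. Gpt2, which moves the amino group of alanine to make pyruvate, was at 134, 128 and 132 FPKM in IH and at 89.2, 95.3 and 99.9 FPKM in control (0.47, SE 0.06, limma adjusted p = 0.313). Sds, serine dehydratase, was at 207, 205 and 166 FPKM in IH and at 150, 120 and 119 FPKM in control (0.57, SE 0.12). The urea cycle enzymes Asl (298, 335 and 290 FPKM in IH, 239, 212 and 254 FPKM in control) and Arg1 (996, 987 and 913 FPKM in IH, 795, 785 and 844 FPKM in control) were both higher. Prodh, which starts proline breakdown, Bcat2, which starts that of branched-chain amino acids, and Gcat, which works on that of threonine, differed by 0.38, 0.42 and 0.36.

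Oat, ornithine aminotransferase, went the other way, at 239, 184 and 225 FPKM in IH and 314, 368 and 309 FPKM in control (-0.62, SE 0.12, limma adjusted p = 0.313). Gpt2 and Oat passed in all 6 fits that left out 1 library. Arg1, Prodh and Gcat passed in 1 of these fits, Sds in 2, and Asl and Bcat2 in 3, with nominal p of up to 0.0419. Without control replicate 1, 4 members were higher and 1 lower. With the length and GC trend removed, 5 were higher and 1 lower.

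In glucose metabolism, Slc37a4 and Pklr were higher and Ldha was lower. Slc37a4, which carries glucose 6-phosphate into the endoplasmic reticulum, where it is cut to free glucose, was at 102, 105 and 109 FPKM in IH and at 68.3, 71.8 and 82.9 FPKM in control (0.50, SE 0.08, limma adjusted p = 0.313), and passed in all 6 fits that left out 1 library. It was the 1 member called of 26 in the glycogen list, with and without control replicate 1, a share of 3.85% near the 2.55% of all genes, and the median of the list was 0.10. Pklr, the pyruvate kinase of liver, was at 138, 169 and 137 FPKM in IH and at 114, 109 and 110 FPKM in control (0.41, SE 0.09). Ldha, a subunit of lactate dehydrogenase, was at 221, 251 and 270 FPKM in IH and at 306, 321 and 309 FPKM in control (-0.34, SE 0.08).

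Other enzymes that the study followed did not pass at ZT8. Gys2, liver glycogen synthase, was at 145, 126 and 149 FPKM in IH and at 79.1, 117 and 124 FPKM in control, with a difference of 0.41 (SE 0.17, limma adjusted p = 0.447) and of 0.21 without control replicate 1. G6pc, the catalytic unit of glucose 6-phosphatase, was at 84.2, 105 and 180 FPKM in IH and at 180, 150 and 156 FPKM in control (-0.46, SE 0.26). Pck1, which commits carbon to gluconeogenesis, had a difference of 0.22 (SE 0.14), Fbp1 0.12 (SE 0.07) and Pygl, glycogen phosphorylase, 0.04 (SE 0.09). In each of G6pc, Pck1 and Pygl the groups overlapped. Idh3a of the citric acid cycle (0.02, SE 0.06) and Cox6a1 of the respiratory chain (0.07, SE 0.07) overlapped too.

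Of the 32 HIF targets tested at ZT8, 0 were higher and 1, Ldha, was lower, with a median of 0.04. This was 3.12% called, near the 2.55% of all genes, and without control replicate 1, 0 were higher and 2 lower. Pdk1, a kinase that inactivates pyruvate dehydrogenase, was at 24.2, 24.0 and 18.1 FPKM in IH and at 10.0, 16.2 and 16.4 FPKM in control (0.62, SE 0.20, limma adjusted p = 0.388). Bnip3, a mitophagy receptor, had a difference of 0.48 (SE 0.18) and of 0.27 without control replicate 1, and Plin2, a lipid droplet coat protein, one of -0.59 (SE 0.18, limma adjusted p = 0.379). The 8 tested genes for HIF subunits and oxygen sensors had 0 calls, with Hif1a at 7.21, 6.72 and 6.15 FPKM in IH and 6.17, 7.56 and 7.45 FPKM in control. The 28 genes of the cAMP and CREB pathway had 0 calls and a median of -0.01.

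In lipid metabolism, Insig2 was lower in IH. Its product holds the sterol sensor SCAP in the endoplasmic reticulum and so keeps SREBP inactive. It was at 22.2, 20.7 and 17.3 FPKM in IH and at 52.7, 34.7 and 33.1 FPKM in control (-0.94, SE 0.19, limma adjusted p = 0.313), and at -0.73 without control replicate 1. Of the 27 genes in the cholesterol list, Insig2 was the 1 called, while 25 had a difference above 0, with a median of 0.21. The share called, 3.70%, was near the 2.55% of all genes, and without control replicate 1, 1 was higher and 1 lower, with a median of 0.21. Insig1, chosen after its values were seen, averaged 134 FPKM in IH and 96.1 FPKM in control (0.42, SE 0.24). It did not pass and its groups overlapped. Any link of Insig2 to the other genes of the list was not tested. Fdps, which makes farnesyl diphosphate, was at 231, 261 and 145 FPKM in IH and at 144, 145 and 130 FPKM in control (0.56, SE 0.21), so IH replicate 3 lay at the level of control. Fasn, fatty acid synthase, was at 63.7, 102 and 47.2 FPKM in IH and at 32.7, 36.9 and 54.3 FPKM in control (0.73, SE 0.30, limma adjusted p = 0.444), and its groups overlapped.

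Gpd1, the cytosolic enzyme that links glycolysis to glycerol 3-phosphate, was at 91.1, 99.3 and 114 FPKM in IH and at 146, 157 and 144 FPKM in control (-0.55, SE 0.09, limma adjusted p = 0.313). Slc25a30, a mitochondrial carrier, had the largest difference of all called genes, -1.46 (SE 0.40), with 2.54, 2.23 and 1.89 FPKM in IH and 9.89, 13.3 and 3.45 FPKM in control. The control values were spread widely, and it passed in 1 of the 6 fits that left out 1 library.

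Genes of fatty acid oxidation and ketogenesis depended on control replicate 1. Over all 6 libraries 0 of 39 were called and the median was 0.00. Without control replicate 1, 6 of the 39 were lower and 0 higher, and the median was -0.21. Among all genes in that fit, 274 of 13215 (2.07%) were lower. Cpt2, the inner carnitine palmitoyltransferase of mitochondria, was at 48.3, 42.0 and 44.7 FPKM in IH and at 49.8, 62.7 and 59.4 FPKM in control. Its difference was -0.34 with that library, which did not pass, and -0.43 without it, which did. Fgf21, a fasting hormone of the liver, was at 0.737, 0.530 and 1.04 FPKM in IH and at 1.01, 2.69 and 2.15 FPKM in control (-0.70 with and -0.96 without). Etfdh, which passes electrons from fatty acid oxidation to ubiquinone, had differences of -0.22 and -0.34. Slc25a20, the carnitine carrier, and Vnn1, a PPARα target, were at 43.1 and 5.30 FPKM in control replicate 1 and at 58.2 to 69.6 and 17.0 to 24.9 FPKM in the other controls. Both were named after their values were seen, and their differences without replicate 1 were -0.39 and -1.16.

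In bile acid transport, Slc10a1 (NTCP), which takes bile acids up from blood, was at 575, 607 and 561 FPKM in IH and at 396, 464 and 456 FPKM in control (0.41, SE 0.08, limma adjusted p = 0.313). Slc10a2 (ASBT), its relative in bile ducts and ileum, was at 1.22, 1.64 and 1.08 FPKM in IH and at 2.23, 2.83 and 2.05 FPKM in control (-0.54, SE 0.12). The xenobiotic P450 list also held Por, Alas1, Nr1i2, Nr1i3, Ahr and Rxra, which are not P450 enzymes. Of its 37 tested genes 3 were higher and 0 lower (8.11%, against 2.55% of all genes). Without control replicate 1, however, 2 were higher and 2 lower. The 3 were Cyp1a2 (0.25), Cyp2c40 (0.47) and Cyp2c54 (0.50), and the 2 Cyp2c genes belong to a family of close paralogs whose reads may be split between them. Among secreted proteins of the liver, F11, coagulation factor XI, was at 48.7, 46.9 and 48.1 FPKM in IH and at 36.4, 31.0 and 33.2 FPKM in control (0.51, SE 0.07, limma adjusted p = 0.313). Apoa1, the main protein of high-density lipoprotein, was at 10830, 10990 and 10632 FPKM in IH and at 8135, 8765 and 8608 FPKM in control (0.35, SE 0.10).

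Further genes with the smallest p among the higher ones had tight groups, which a choice by smallest p favours. Tgfbr3l, a relative of the betaglycan receptor, had the smallest p of all, at 7.65, 7.30 and 7.35 FPKM in IH and at 4.14, 4.87 and 4.80 FPKM in control (0.59, SE 0.07, limma adjusted p = 0.313). Mast3, a kinase, was at 13.6 to 14.0 FPKM in IH and 7.71 to 9.62 FPKM in control (0.64). Etnk2, an ethanolamine kinase of phospholipid synthesis, was at 169 to 187 FPKM in IH and 124 to 133 FPKM in control (0.44). Rab4a, a GTPase of endosome recycling, was at 21.2 to 22.8 FPKM in IH and 16.9 to 17.6 FPKM in control (0.35). Dedd2 (0.40), Cpeb1 (0.39), Atp6v0d2 (0.85), Ankrd55 (0.37) and the unnamed transcript B930025P03Rik (0.84) completed the 12 of smallest p, the last 4 at under 3 FPKM in each library.

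Of the called genes with large differences, Eif4ebp3, which restrains translation, was at 54.7, 59.9 and 58.4 FPKM in IH and at 46.4, 25.3 and 20.9 FPKM in control. Control replicate 1 lay near IH here, and the difference was 0.96 with it and 1.29 without it, both past the threshold. The transcript 4930404H11Rik was at 3.72, 4.75 and 3.27 FPKM in IH and at 1.39, 2.58 and 1.25 FPKM in control (0.86). Upp2, a uridine phosphorylase of liver, was at 328 to 345 FPKM in IH and 180 to 251 FPKM in control (0.67). Map2k6, a kinase upstream of p38, was at 4.83 to 5.98 FPKM in IH and 1.76 to 3.55 FPKM in control (0.82). Bmf, a pro-apoptotic BCL2 family member, was at 4.09 to 5.14 FPKM in IH and 1.59 to 3.34 FPKM in control (0.75). Zbtb16, a glucocorticoid-induced transcription factor, was at 1.95, 1.22 and 2.04 FPKM in IH and at 0.567, 0.925 and 0.404 FPKM in control (0.74). With Sds it made up the 2 called of 20 in the glucocorticoid list (10%, against 2.55% of all genes), where 2 were also higher without control replicate 1. Rbm3, an RNA-binding protein induced by cooling, was at 39.5, 34.1 and 38.3 FPKM in IH and at 30.8, 29.0 and 28.4 FPKM in control (0.33, SE 0.07).

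Among the lower genes of smallest p, Mal2, a protein of apical transport in hepatocytes, was at 6.96 to 7.34 FPKM in IH and 10.0 to 12.5 FPKM in control (-0.55). Lasp1, an actin-binding protein, was at 23.1 to 24.3 FPKM in IH and 29.1 to 32.7 FPKM in control (-0.36). Abi3, an adaptor of actin regulation expressed in blood-derived cells, was at 2.13 to 2.50 FPKM in IH and 3.35 to 4.22 FPKM in control (-0.57). Dbf4, the activator of the replication kinase CDC7, was at 0.932 to 1.07 FPKM in IH and 1.48 to 1.58 FPKM in control (-0.34). Npb (-0.50), Tuba8 (-0.38), Hmgn3 (-0.32), Sema5b (-0.21) and Etaa1os (-0.40) were at under 1.2 FPKM in each library. Etaa1os is named as an opposite-strand transcript of Etaa1, and since how the authors' counting used strand is not given in the sources used here, reads of the pair may not be separable.

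Erdr1 (-0.91, with 56.7 to 89.0 FPKM in IH and 110 to 185 FPKM in control) and Gm16551 (-0.74) had larger differences and passed in 2 of the 6 fits that left out 1 library. Steap4, a metalloreductase of the acute phase list, was at 17.5, 16.4 and 17.7 FPKM in IH and at 31.9, 25.5 and 22.1 FPKM in control (-0.58), and at -0.44 without control replicate 1. It was the 1 called of 30 in that list (3.33%, near the 2.55% of all genes), where the median was -0.08. Without control replicate 1, 3 members of the list were higher and 1 lower, and the median was 0.21. Slc11a2, the iron transporter DMT1, fell by 0.33, with 3.76 to 4.37 FPKM in IH and 5.02 to 5.60 FPKM in control. The proteasome subunits Psmd1 and Psmd14 fell by 0.25 and 0.26, 2 of 44 tested (4.55%, against 2.55% of all genes), and 3 were lower without control replicate 1. The cell cycle genes Ccne1 and Rrm2 were higher by 0.30 and 0.41, 2 of 33 tested (6.06%, against 2.55% of all genes). In the list, 0 were higher and 1 was lower without control replicate 1, and with the length and GC trend removed 0 were higher and 2 lower.

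Several lists had 0 calls. Of the 25 heat shock chaperones tested 22 had a difference below 0, with a median of -0.12. Hspa4, the nearest to the threshold, was at 19.7, 18.2 and 20.4 FPKM in IH and at 22.5, 21.6 and 22.9 FPKM in control (-0.19, SE 0.06, limma adjusted p = 0.388), and Hsp90ab1 had a difference of -0.16 (SE 0.08). The unfolded protein response (29 genes), the antioxidant targets of NRF2 (35 genes), the citric acid cycle (22 genes), NAD metabolism and sirtuins (27 genes), the insulin, growth hormone and IGF axis (28 genes), and the NF-kappaB and immediate early genes (29 genes) had medians between 0.00 and 0.07. Markers of endothelial, stellate, biliary, erythroid, neutrophil and lymphoid cells also had 0 calls. When control replicate 1 was left out, NAD metabolism had 2 higher genes, and the NRF2 targets, the insulin axis and the neutrophil markers had 1 lower gene each.

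**Figure D4:**
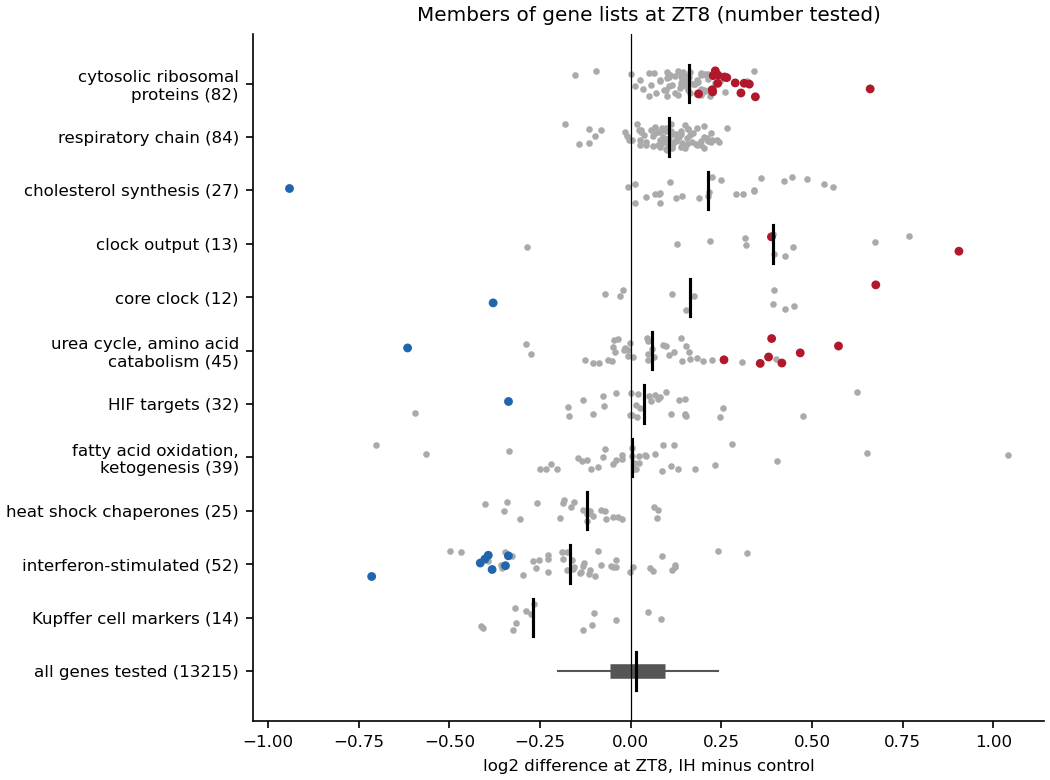
Log2 difference at ZT8, IH minus control (horizontal axis), of each tested member of 11 gene lists (1 point per gene), with the list's median as a black line. Red and blue points passed a nominal p of 0.01 (15 of the ribosomal proteins above 0, 7 of the interferon-stimulated genes below 0), and the lowest row gives the median, quartiles (thick bar) and 5th to 95th percentile (thin line) of all 13215 genes.

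The 337 genes were then followed to the other 5 time points, which used other mice in both conditions. At ZT4, in the middle of the hypoxic window, 192 of the 216 higher genes (88.9%) lay above 0, against 68% of all genes, and 93 of the 121 lower genes (76.9%) lay below 0, against 31.9% of all genes. Their median differences at ZT4 were 0.23 and -0.13, where ZT8 had 0.31 and -0.32. At ZT12, 4 h after the window, 74 of the 216 (34.3%) lay above 0, against 57.7% of all genes, and 37 of the 121 (30.6%) lay below 0, against 42.1%. At ZT16 the higher genes lay above 0 in 82.9% (all genes 59.4%), with a median of 0.10, whereas the lower genes lay below 0 in 52.9% (all genes 40.5%). At ZT20 and ZT0 the medians of both sets were between -0.03 and 0.03. Across the 13215 genes the differences at ZT8 correlated with those at ZT4 by r = 0.38 and with those at ZT12 by r = -0.14, a description across genes within these libraries.

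The ZT12 values rest in part on control ZT12 replicate 2, a library that stood apart there. Without it, 30.6% of the 216 genes lay above 0 (all genes 38.4%) and 44.6% of the 121 lay below 0 (all genes 61.5%), so the shift of all genes changed direction.

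**Figure D5:**
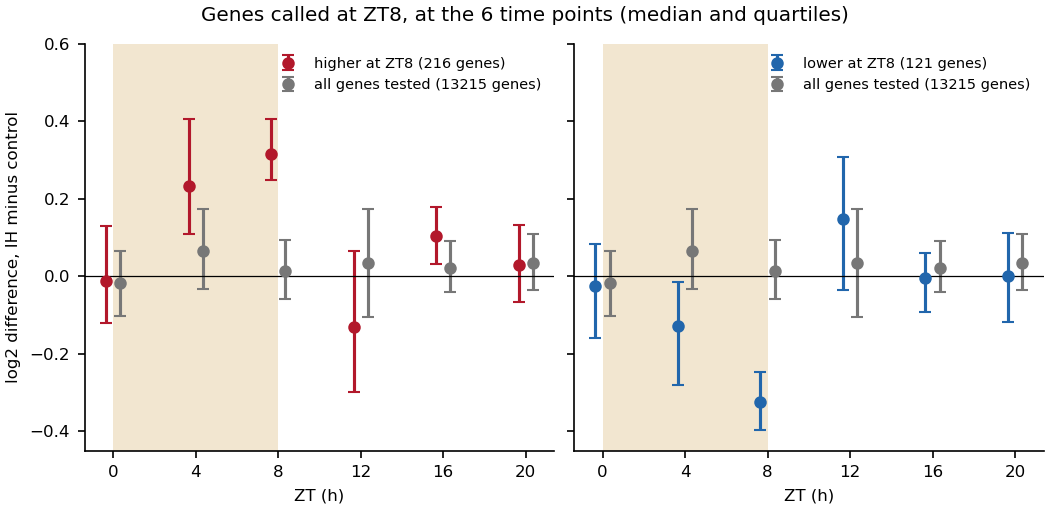
Median and quartiles of the log2 difference, IH minus control (vertical axis), at each time point (horizontal axis, ZT in h) for the 216 genes higher at ZT8 (left, red), the 121 genes lower at ZT8 (right, blue) and all 13215 genes (grey), with the hypoxic window shaded. The values at ZT8 are those that chose the genes, and at ZT4 the medians were 0.23 and -0.13 against 0.07 for all genes.

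The difference at ZT8 was also tested against that at other time points, in 1 fit over all 36 libraries. Against the mean of the other 5 time points, 0 of 13215 genes passed an adjusted p of 0.05 in limma (smallest adjusted p 0.224), 454 had an unadjusted p under 0.05, and 87 (0.658%) a nominal p of at most 0.01. Gpd1, lower at ZT8 and at 0.23 and 0.41 at ZT4 and ZT12, differed from the other time points by -0.76 (limma adjusted p = 0.449). Insig2 differed by -0.92 (limma adjusted p = 0.739) and Clock by -0.48 (limma adjusted p = 0.449). Isg15, at -0.89 at ZT4, differed from the other time points by -0.42 (limma adjusted p = 1).

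Against ZT4, 1 gene (0.00757%) passed the adjusted and 115 (0.87%) the nominal threshold. The 1 gene was Rgs16, a regulator of G protein signalling in the clock output list. At ZT8 it was at 155, 102 and 108 FPKM in IH and at 50.2, 75.6 and 90.4 FPKM in control (0.77), and at ZT4 at 77.5 to 86.8 FPKM in IH and at 1.02 to 3.42 FPKM in control (4.84). ZT8 minus ZT4 was thus -4.07 on the log2 scale (SE 0.67, limma adjusted p = 0.0198). Against ZT12, 3 genes (0.0227%) passed the adjusted and 760 (5.75%) the nominal threshold. Clock was lower in IH at ZT8 and at 1.47 to 2.34 FPKM in IH and 1.00 to 1.52 FPKM in control at ZT12 (difference of differences -0.82, SE 0.15, limma adjusted p = 0.0212). Pbx4, a homeobox gene, was at 0.554, 0.931 and 0.716 FPKM in IH and 0.200, 0.262 and 0.348 FPKM in control at ZT8, and at ZT12 the 3 IH libraries lay below the 3 control libraries (0.78, SE 0.13, limma adjusted p = 0.00848). The transcript Gm15421 lay the same way, with 0.644 to 0.878 FPKM in IH and 0.331 to 0.438 FPKM in control at ZT8 (0.67, SE 0.10, limma adjusted p = 0.00382).

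By list, the medians at ZT4 and ZT8 had the same sign for interferon-stimulated genes (-0.24 at ZT4, 6 of 52 lower and 0 higher), heat shock chaperones (-0.21), clock output (0.74) and ribosomal proteins (0.19). At ZT4, in the fit over all 36 libraries, 200 of all 13215 genes were lower and 643 higher. At ZT12 the heat shock chaperones were at 0.28 and the ribosomal proteins at -0.31, which became 0.37 and -0.02 without control ZT12 replicate 2, and the interferon-stimulated genes were at -0.09. At ZT0, ZT16 and ZT20 the ribosomal proteins were at 0.16, 0.12 and 0.16, and the interferon-stimulated genes at -0.22, -0.03 and -0.14. The heat shock chaperones were then at -0.01, -0.09 and 0.18, and the clock output list at -0.04, 0.02 and 0.12. The cholesterol list was at -0.08 at ZT4 and 0.21 at ZT8, and between 0.05 and 0.43 at the other time points. These differences between time points were not tested for lists.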

How the data were processed

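Polyadenylated liver RNA had been made into stranded libraries and sequenced as paired ends. According to the submitters' processing notes, the reads were processed with TopHat2 2.1.1 and Cufflinks 2.2.1 on mm10. The deposited FPKM values, made by the authors, were given in 1 table per condition. Both tables have the same column names, so the condition was taken from the name of each table. The condition, time point and replicate of each sample came from the labels, and columns were matched to them by table and column name. The 280 symbols on several rows were left out. Depth was inferred only relatively, from the FPKM steps of weakly expressed genes.

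The main test compared 3 with 3 libraries in R 4.3.3 with limma 3.58.1 (moderated test with an intensity trend, two-sided) on log2(FPKM + 1), for genes that averaged 0.1 FPKM or more across all libraries. A gene was called at a nominal p of at most 0.01, and adjusted p are Benjamini-Hochberg over all 13215 genes. Differences between time points were contrasts in 1 limma fit with a mean per group over 36 libraries. Members and gene lists were chosen with earlier results of these data known, so list counts are descriptions. Named genes were the 12 of smallest p and the 8 largest differences in each direction, genes the study names, list members that passed, and up to 4 further members of smallest p per list. A few genes that this rule names are not reported here. Other genes are said to be chosen after their values were seen, or are those whose difference changed between time points. Transcript length and GC content were those of each symbol's longest GENCODE transcript, and promoters from RefSeq, where 248 of the 337 called genes had one. The fits were tested on simulated data. Alternatives were other pseudocounts, filters, scalings, sample weights, the replicate block, fits over more libraries and leaving out each library. Removal of the length and GC trend, and a fit over 35 libraries without control ZT8 replicate 1, were added after the data were seen. Plots used matplotlib 3.10.9 under Python 3.11.15.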

Additional observations from a re-analysis of the deposited data

Results flagged for a closer look

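A total of 4 genes had a difference between IH and control that itself differed between time points at an adjusted p under 0.05 (limma). For Rgs16, ZT8 minus ZT4 was -4.07. It passed in 9 of 14 other settings, with adjusted p from 0.00729 to 0.310, and failed with a pseudocount of 0.1 (0.310) and without IH replicate 2 (0.108) or 3 (0.0971) or control replicate 2 (0.0921) or 3 (0.113). For Clock, ZT8 minus ZT12 was -0.82. It passed in 10 of 14 settings (adjusted p from 0.00561 to 0.106) and failed without IH replicate 1 (0.106) or control replicate 1 (0.0961), without control ZT12 replicate 2 (0.0545), and with FPKM rescaled to a common sum (0.0604). For Pbx4, ZT8 minus ZT12 was 0.78, and it passed in 10 of 13 settings (adjusted p from 0.00459 to 0.0750). For Gm15421, ZT8 minus ZT12 was 0.67, and it passed in 13 of 13 settings (adjusted p from 0.00237 to 0.0309). Pbx4, Gm15421 and Clock were at low levels, at most 2.34 FPKM in every ZT8 and ZT12 library.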

How the results depend on the processing

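Of the 70 genes named here that passed the nominal threshold, 17 passed in every setting tried (up to 20 a gene) and 0 changed direction in any. Direction could change only with another scaling or with the length and GC trend removed, since the groups of these genes did not overlap. The counts were less stable. Higher and lower genes numbered 101 and 48 in a fit over all 36 libraries, 55 and 51 in a fit over 35 libraries that left out control ZT8 replicate 1, and 376 and 307 with sample weights. Lower genes numbered 197 with no filter on low values, 185 after quantile normalization and 190 with the length and GC trend removed. Leaving out 1 library at a time gave 95 to 240 higher and 72 to 274 lower genes, with the fewest higher genes without IH replicate 2 (95) or 1 (96). Without control replicates 2 and 3 the lower genes numbered 83 and 140, and without IH replicates 1, 2 and 3 they numbered 72, 77 and 94. The cause of these shifts was not tested.

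At an adjusted p under 0.05, 1 gene passed at ZT8 over all 36 libraries and 1 over 35 libraries without control ZT12 replicate 2 (0 to 1 when leaving out 1 library). Against the other 5 time points, 1 gene passed over those 35 libraries (0 to 1). Against ZT4, 0 passed with a pseudocount of 0.1, 2 with no filter and 2 over those 35 libraries (0 to 1). Against ZT12, 5 passed with a pseudocount of 0.1, 1 at a mean of at least 1 FPKM, 1 after rescaling to a common sum, 8 after median of ratios scaling, 13 after quantile normalization and 5 with the replicate block (1 to 12, with 12 without IH replicate 3, 11 without control replicate 2 and 1 without control replicate 1).

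Libraries of the same replicate number did not deviate together (correlations of their deviations 0.02, -0.04 and 0.08), and with the replicate block 152 genes were higher and 106 lower at ZT8.

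Among differences that had not passed, Pygl was at -0.0143 after quantile normalization (-0.0265 to 0.109 when leaving out 1 library), Idh3a at -0.00730 after rescaling to a common sum and -0.000263 after quantile normalization (-0.0233 to 0.0493), and Cox6a1 at -0.0612 after quantile normalization and -0.0176 with the length and GC trend removed. Nr1d1 ranged from -0.116 to 0.0617 when leaving out 1 library. Saa1 was at 0.15 and Cyp4a14 at -0.0291 with sample weights. Without control replicate 1, also over 35 libraries, Saa1 was at 0.51, Cyp4a14 at -0.54 and Alb at -0.0189, where leaving out other single libraries gave values down to -2.17 for Saa1 and up to 2.13 for Cyp4a14 and 0.26 for Alb. Depth is known only in relative terms, so it is not known which low genes it limits.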
